A study of Mus musculus with 7 samples.

Results

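A set of 10 genes of the oxidative and metal stress response were followed in mouse hearts with and without myocarditis: Nfe2l2, which encodes the transcription factor NRF2, 7 genes known as NRF2 targets (Hmox1, Nqo1, Gclc, Gclm, Txnrd1, Srxn1 and Slc7a11) and the metallothionein genes Mt1 and Mt2. They were taken by name from a table of 23420 gene rows, and all 10 were found and tested. RNA of 7 hearts was sequenced as total RNA in a mouse model of immune checkpoint inhibitor (ICI) myocarditis, in which germline loss of checkpoint genes stands in for the drugs. The 4 control hearts were Ctla4+/+;Pdcd1-/- and the 3 ICI-myocarditis hearts were Ctla4+/-;Pdcd1-/-, so both groups lacked Pdcd1, the PD-1 gene, and only 1 copy of Ctla4 separated them. The labels put every animal at 3 to 6 weeks of age, with no treatment. The design text calls the controls unaffected. The labels name the tissue as whole heart and the extraction notes as ventricle. They give no sex, litter or strain and do not say whether animals were pooled. The question was which of these stress genes differed in level between hearts of the 2 genotypes.

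NRF2 is held in the cytosol and degraded through KEAP1 until oxidants or electrophiles modify KEAP1. It then enters the nucleus, pairs with small MAF proteins and binds antioxidant response elements, a site that BACH1 otherwise occupies. Its targets make glutathione, reduce thioredoxin, break down heme and detoxify quinones, and in the heart they buffer the oxidants that mitochondria release. Metallothioneins are small cysteine-rich proteins that bind zinc and copper. Their genes answer to the metal-responsive factor MTF1, to glucocorticoids and to inflammatory cytokines.

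Values are normalized counts, that is reads per gene after division by a library's own size factor. Recovered totals ran from 20931730 to 39037176 reads per library. Each gene was tested with limma on log2(normalized count + 1), and it is said to rise or fall only where its p-value, adjusted by Benjamini-Hochberg over 15258 genes, was under 0.05. Pdcd1 reads lay between 2.50 and 244 normalized counts in controls and between 1096 and 1481 in ICI-myocarditis, against a label of Pdcd1-/- throughout, and Ctla4 lay between 29.2 and 113 and between 251 and 373. Gene totals do not show which exons were read, so neither gene checks the genotype. Heart muscle markers were abundant in all 7 libraries (summed normalized counts of 7 genes from 724793 in ICI-myocarditis 3 to 2206950 in control 4). Control 2 stood apart by its T cell markers, with a summed level of 1158 for 5 genes where the other controls had 96.3 to 144. Control 4 stood apart by hepatocyte markers. It had 425 normalized counts of Alb, which was at 0 in the other controls and at most 1.53 in ICI-myocarditis. Nothing in the labels says whether the hearts were separate litters or batches. The p-values set the difference between groups against the spread within the groups of these 7 samples, whatever its source.

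Mt2, Hmox1 and Slc7a11 rose in ICI-myocarditis, each by about 2 on the log2 scale, while Nfe2l2 itself, Gclc and Nqo1 showed small or negative differences that did not pass. The 3 called members are 30.0% of the 10, where 11.7% of all genes tested rose, 4.00% fell and 15.7% were called in either direction. In 5 members (Mt2, Hmox1, Slc7a11, Srxn1 and Txnrd1) every ICI-myocarditis heart lay above every control, as did 17.3% of all genes tested. No member had every ICI-myocarditis heart below every control, as 11.3% of genes did. The median log2 fold change of the members was 0.52, beside -0.02 over all genes tested. With so few members and members chosen with earlier results known, these shares are a description. In the authors' deposited table, 4 of the 10 members had an adjusted p under 0.05 (Hmox1, Mt2, Slc7a11 and Srxn1), where 20.2% of the genes with an adjusted p did.

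**Figure D1:**
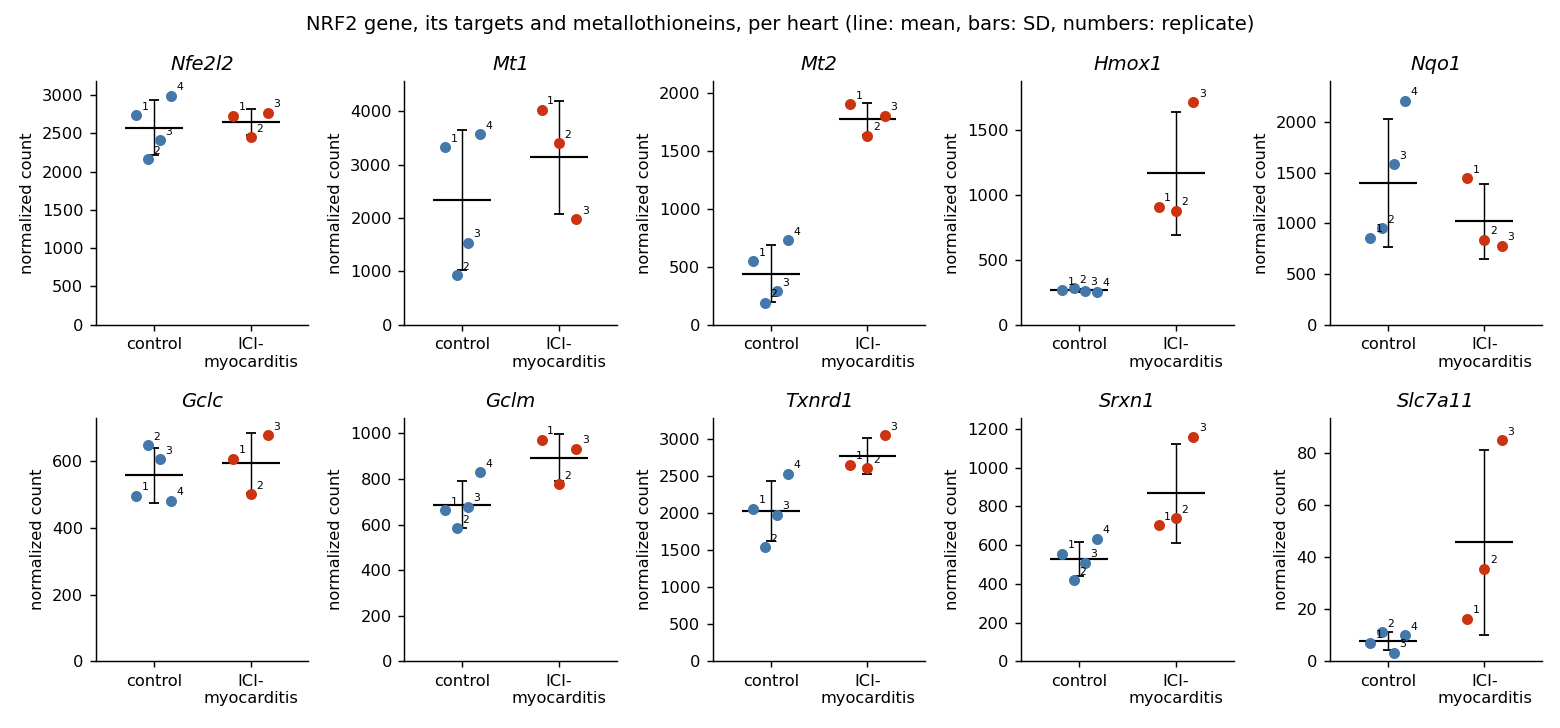
Normalized counts (linear axes from 0) of the 10 genes in each heart, with controls in blue, ICI-myocarditis in red, the group mean as a line and SD as bars. Mt2 and Hmox1 are separated by wide gaps between groups, with lowest ICI-myocarditis values of 1633 and 879 normalized counts against highest controls of 732 and 282, while Nfe2l2, Mt1, Nqo1 and Gclc overlap.

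Nfe2l2, the gene of NRF2, did not pass the test. Controls 1 to 4 had 2739, 2160.0, 2411 and 2990.3 normalized counts, and ICI-myocarditis hearts 1 to 3 had 2729, 2450.2 and 2768. All 3 ICI-myocarditis values lay inside the control range, and the log2 fold change was 0.05 (SE 0.19, limma adjusted p = 0.893). NRF2 is controlled chiefly through the stability of its protein, which RNA counts do not measure. Of 10 genes for regulators and partners of NRF2, 0 were called by limma, edgeR or DESeq2 in either direction and 0 had an unadjusted limma p under 0.05. Their median log2 fold change was 0.08. Keap1, which encodes the adaptor that marks NRF2 for degradation, averaged 2003 ± 446 normalized counts over the 4 controls (± SD) and 2155 ± 89.3 over the 3 ICI-myocarditis hearts, a difference of 0.13 in log2 units (SE 0.21, limma adjusted p = 0.728). Bach1, the repressor that competes for NRF2's sites, had the lowest p of the list, with 2275 ± 84.8 and 2800.4 ± 159 normalized counts. Its 3 ICI-myocarditis hearts lay above all controls, but the difference of 0.30 (SE 0.16) missed the threshold (limma adjusted p = 0.260).

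**Figure D2:**
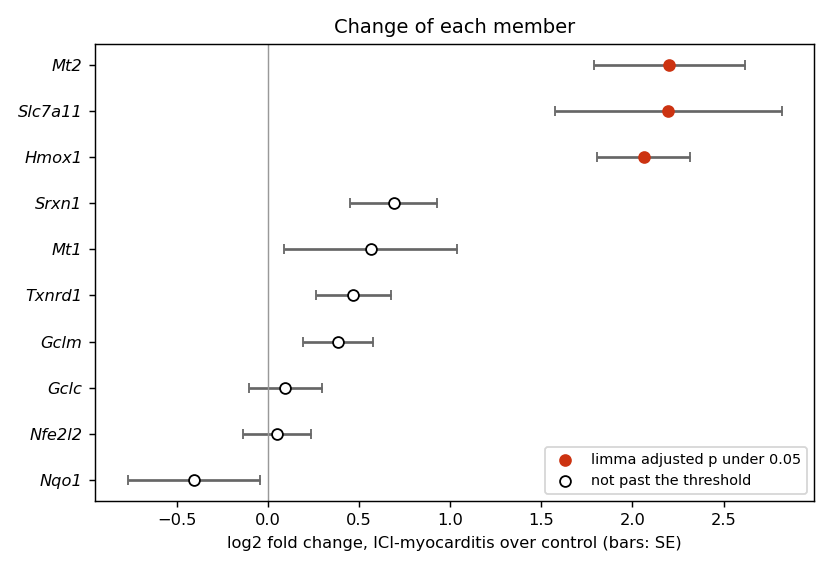
Log2 fold change of ICI-myocarditis over control (x axis) for each of the 10 genes, with the standard error as bars and filled points for a limma adjusted p under 0.05. Mt2 (2.20), Slc7a11 (2.20) and Hmox1 (2.06) stand apart from the other 7 genes, which lie between -0.41 and 0.69.

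The metallothionein genes parted ways. Mt2 had 548, 190.0, 289 and 732 normalized counts in controls 1 to 4, against 1906, 1633 and 1806 in ICI-myocarditis 1 to 3. Every ICI-myocarditis heart had over 2 times the highest control, and the 3 were closer to each other than the controls were. The log2 fold change was 2.20 (SE 0.42, limma adjusted p = 0.00890), a rise that held in all 19 alternatives. Mt1 had 3333, 929, 1539.8 and 3569.5 normalized counts in controls and 4031, 3401 and 1976 in ICI-myocarditis. Only ICI-myocarditis 1 exceeded the highest control, and the difference of 0.56 on the log2 scale (SE 0.48) did not pass (limma adjusted p = 0.475).

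Within each library, the ratio of Mt2 to Mt1 was steady in controls and higher in myocarditis. It was 0.164, 0.204, 0.188 and 0.205 in controls 1 to 4, against 0.473, 0.480 and 0.914 in ICI-myocarditis 1 to 3. Both genes varied by more than 3.8 times among controls (3.84 times for Mt1 and 3.85 times for Mt2). Their ratio ran only from 0.164 to 0.205 there, with a mean of 0.191 ± 0.0191 (SD, n = 4). In ICI-myocarditis it was 0.622 ± 0.253 (SD, n = 3), and the groups did not overlap. The pair of transcripts share no run of more than 20 bases in GENCODE release M21, far below the read length of 150 bases, although how reads with several matches were counted is not given in the sources used here. Control 4, with its hepatocyte RNA, had the highest Mt1 and Mt2 of the controls, at 3569.5 and 732 normalized counts. Control 1, with Alb at 0, was next, at 3333 and 548. Liver is a rich source of metallothionein, but the part of its RNA in these values was not tested. Without control 4 the log2 fold change of Mt2 was 2.51 (limma adjusted p = 0.00644) and that of Mt1 was 0.84 (limma adjusted p = 0.275). Fewer cells of a type and less RNA per cell cannot be told apart in such bulk samples.

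The promoters of these neighbouring genes are shown because both are known to carry metal response elements. Whether their matches bear on the unequal changes was not tested. On GRCm38 Mt2 lies on chromosome 8 from 94172664 to 94173568 and Mt1 from 94179082 to 94180327, both on the plus strand, with 5513 bases between them. The windows, from the RefSeq table of GRCm38.p6, run from 250 bases before to 50 bases after a RefSeq start site, at chr8:94172368-94172667 for Mt2 and chr8:94178839-94179138 for Mt1. Capitals mark matches, on either strand, to the metal response element core (TGCACNC or TGCGCNC) and to the antioxidant response element core (TGACNNNGC).
Mt2: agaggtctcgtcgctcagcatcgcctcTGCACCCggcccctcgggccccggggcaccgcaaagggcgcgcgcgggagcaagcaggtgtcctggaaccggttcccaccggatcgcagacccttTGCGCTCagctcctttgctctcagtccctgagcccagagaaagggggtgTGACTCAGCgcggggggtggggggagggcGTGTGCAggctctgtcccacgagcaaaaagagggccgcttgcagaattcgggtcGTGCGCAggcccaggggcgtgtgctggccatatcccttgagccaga
Mt1: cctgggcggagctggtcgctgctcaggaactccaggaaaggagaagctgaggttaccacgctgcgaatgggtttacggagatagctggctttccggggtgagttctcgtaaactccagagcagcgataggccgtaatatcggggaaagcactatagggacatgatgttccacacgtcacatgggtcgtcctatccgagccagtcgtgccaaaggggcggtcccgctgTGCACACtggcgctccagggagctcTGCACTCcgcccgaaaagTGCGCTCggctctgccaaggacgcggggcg
The Mt2 window held 4 metal response matches and 1 antioxidant response match, TGACTCAGC, which begins 79 bases before the start site. The Mt1 window held 3 metal response matches and no antioxidant response match. That absence says only that these letters are not in this window, which ends before other listed Mt1 starts. Among 32851 windows of 300 bases, several per gene in places, 25.7% held a metal response match and 1.97% held 3 or more, while 12.4% held an antioxidant response match. GENCODE also lists Mt1 transcripts that start further downstream, at 94179211 and 94179241, and an Mt2 transcript that starts at 94172860, so for both genes elements near those starts lie outside these windows. A match is not evidence that a factor binds.

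No zinc-handling partner of Mt2 passed the test. Of 8 listed genes 6 were tested, and 0 were called by limma, edgeR or DESeq2 in either direction, with 1 at an unadjusted limma p under 0.05. Mtf1, the metal-responsive factor, averaged 1017 ± 188 normalized counts over the 4 controls (± SD) and 863 ± 76.0 over the 3 ICI-myocarditis hearts, with a difference of -0.22 in log2 units (SE 0.20, limma adjusted p = 0.504). Slc30a1, a zinc exporter that is a known MTF1 target, was lower in every ICI-myocarditis heart than in any control. Its normalized counts were 1684, 1507, 1455 and 1264 in controls and 1143, 1163 and 1061 in ICI-myocarditis, but the difference of -0.39 (SE 0.17) missed the threshold (limma adjusted p = 0.165). Mt3, the brain metallothionein, stayed near 20 normalized counts (14.8 to 25.0), and Mt4 was at 0 in all 7 libraries.

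Glucocorticoid-responsive genes were read beside the metallothioneins, since steroids induce both Mt1 and Mt2. Of 8 such genes 1 rose and 0 fell, with a median log2 fold change of 0.27. The gene that passed was Fkbp5, a chaperone of the glucocorticoid receptor, with 1387, 528, 413 and 786 normalized counts in controls and 3029.6, 1070.4 and 4215 in ICI-myocarditis. ICI-myocarditis 2 lay below control 1, so the groups overlapped. Its log2 fold change was 1.77 (SE 0.52, limma adjusted p = 0.0476), and it missed the threshold when any of 5 single libraries was left out, namely control 2 (0.0627), control 3 (0.129), control 4 (0.0679), ICI-myocarditis 1 (0.127) or ICI-myocarditis 3 (0.191). Fkbp5 passed in 9 of 19 alternatives, and with all 7 libraries it also missed with no filter (limma adjusted p = 0.0512), a filter on a mean of 50 (0.0517), TMM scaling (0.0503) and no trended or robust variance (0.0714).

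Hmox1, which encodes the inducible heme oxygenase that releases iron, carbon monoxide and biliverdin from heme, lies on chromosome 8 from 75093621 to 75100589 (GRCm38, plus strand) and had the least variable controls of the members. They held 265, 282, 262 and 254 normalized counts, a spread of 1.11 times, while the ICI-myocarditis hearts had 911, 879 and 1718. All 3 lay more than 3 times above the highest control, with ICI-myocarditis 3 about 2 times above the other 2. The log2 fold change was 2.06 (SE 0.25, limma adjusted p = 0.00303), the lowest p of the members, and it passed in all 19 alternatives. Without ICI-myocarditis 3 it was 1.75 (limma adjusted p = 0.0104). Hmox2, the constitutive isoenzyme, averaged 1067 ± 277 normalized counts over the 4 controls (± SD) and 967 ± 68.7 over the 3 ICI-myocarditis hearts, a difference of -0.11 (SE 0.22, limma adjusted p = 0.792) whose sign turns with scaling by library totals (0.05). The ratio of Hmox1 to Hmox2 was 0.244, 0.358, 0.275 and 0.176 in controls and 0.962, 0.842 and 1.89 in ICI-myocarditis.

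The same libraries held more RNA of macrophage markers. Macrophages are known to express heme oxygenase strongly when they clear red cells. Of 8 macrophage markers 7 rose (all but Mertk), and their summed level was 8013 to 10210.3 normalized counts in controls and 29969 to 58361 in ICI-myocarditis, highest in ICI-myocarditis 3, as for Hmox1. The part of macrophages in the rise of Hmox1 was not tested. Among the red blood cell markers, Beta-s, Alas2 and Slc4a1 were not called, and Hba-a1 and Hbb-b1 were at 0 in all 7 libraries. Beta-s, a globin gene, had 6130 to 40815 normalized counts in the same libraries, so these zeros are not read as absence of red cell RNA.

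Other genes of heme and iron handling moved both ways. Of 9 tested, 1 rose and 2 fell, with a median log2 fold change of 0.11. Ftl1, the ferritin light chain that stores iron, rose from 7715 ± 724 to 18401 ± 4243 normalized counts, by 1.23 (SE 0.25, limma adjusted p = 0.0106; 0.0509 without ICI-myocarditis 3). Ftl1 has near-identical copies in the mouse genome, so its reads may be shared with them. Cd163, the scavenger receptor for haemoglobin on resident macrophages, fell from 1252 ± 84.7 to 662 ± 54.8 normalized counts, a log2 difference of -0.92 (SE 0.17; limma adjusted p = 0.00795), although the macrophage markers as a list rose. Slc40a1, the iron exporter ferroportin and a known NRF2 target, fell from 801 ± 306 to 262 ± 139 normalized counts, a log2 difference of -1.71 (SE 0.445; limma adjusted p = 0.0314). The call for Slc40a1 was lost when any of 5 libraries was left out (controls 1, 3 and 4, ICI-myocarditis 2 and 3, limma adjusted p from 0.0543 to 0.0949). Biliverdin reductase genes Blvra and Blvrb differed by 0.08 and 0.42 and were not called.

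Slc7a11, which encodes the cystine importer xCT that feeds glutathione synthesis, was scarce in all hearts. The gene spans chromosome 3 from 49892526 to 50443614 (GRCm38, minus strand). It had 7, 9, 3 and 8 reads in controls 1 to 4, against 16, 49 and 111 in ICI-myocarditis 1 to 3, or 7.06, 11.1, 3.35 and 10.01 against 16.4, 35.5 and 84.8 normalized counts. All ICI-myocarditis hearts lay above all controls, but they spanned 5.18 times among themselves. The log2 fold change was 2.20 (SE 0.62, limma adjusted p = 0.0426). This call rested on single libraries: it was lost without control 1 (limma adjusted p = 0.0959), control 3 (0.112), ICI-myocarditis 2 (0.116) or ICI-myocarditis 3 (0.217). Only 5 of 7 libraries reached the 10 normalized counts that the filter asks of 3, and the ICI-myocarditis libraries alone would have met it. Its partner chain in the transporter, Slc3a2, differed by 0.58 (SE 0.22, limma adjusted p = 0.117).

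Slc7a11 is known as a target of both NRF2 and ATF4, the factor of the amino acid stress response, so genes of the latter were listed as a comparison. Of 10 such genes 7 rose and 0 fell, with a median log2 fold change of 1.25, and 7 had all ICI-myocarditis hearts above all controls. Phgdh and Psat1, enzymes of serine synthesis, rose from 95.4 ± 31.3 to 348 ± 60.5 and from 137 ± 45.3 to 504 ± 97.3 normalized counts. Their log2 fold changes were 1.89 (SE 0.29, limma adjusted p = 0.00457) and 1.92 (SE 0.31, limma adjusted p = 0.00529). Mthfd2, of mitochondrial one-carbon metabolism, rose by 1.79 (SE 0.29, limma adjusted p = 0.00529) and Ddit3, which encodes the stress factor CHOP, by 1.22 (SE 0.25, limma adjusted p = 0.0120). Atf3 (1.67), Asns (1.29) and Sesn2 (0.76) were the other called genes, while Atf4 itself (0.39), Chac1 (0.28) and Trib3 (-0.07) did not pass. T cell markers rose beside them in 5 of 5 tested, from 96.3 to 1158 summed normalized counts in controls to 5464 to 8319 in ICI-myocarditis. Macrophage sums (8013 to 10210.3 against 29969 to 58361) also lay apart. So did fibroblast sums (25224 to 42967 against 45503 to 80618), where 1 of 5 genes was called. The part of any of these cell types in the rises of Slc7a11 and of these genes was not tested. The count of called ATF4 genes fell from 7 to 4 without ICI-myocarditis 1 and to 4 without ICI-myocarditis 3. In both, Asns (limma adjusted p = 0.0694 and 0.0763), Sesn2 (0.108 and 0.0763) and Atf3 (0.0935 and 0.103) did not pass. With both control 2 and control 4 left out, 5 of the 10 passed.

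The Slc7a11 promoter window is shown because it holds a pair of the elements that ATF4 is known to use. It lies on the minus strand at chr3:50443564-50443863 (GRCm38.p6), and capitals mark the amino acid response element core TGATGCAA on either strand, a motif added after the sequence had been seen. The Srxn1 window, at chr2:152105274-152105573 on the plus strand, is shown beside it with its antioxidant and metal response matches in capitals.
Slc7a11: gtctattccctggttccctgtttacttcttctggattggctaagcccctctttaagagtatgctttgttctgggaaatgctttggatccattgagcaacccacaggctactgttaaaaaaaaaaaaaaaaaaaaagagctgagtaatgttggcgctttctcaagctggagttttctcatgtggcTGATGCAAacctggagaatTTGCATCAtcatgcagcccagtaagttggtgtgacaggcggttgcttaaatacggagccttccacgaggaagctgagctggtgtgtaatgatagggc
Srxn1: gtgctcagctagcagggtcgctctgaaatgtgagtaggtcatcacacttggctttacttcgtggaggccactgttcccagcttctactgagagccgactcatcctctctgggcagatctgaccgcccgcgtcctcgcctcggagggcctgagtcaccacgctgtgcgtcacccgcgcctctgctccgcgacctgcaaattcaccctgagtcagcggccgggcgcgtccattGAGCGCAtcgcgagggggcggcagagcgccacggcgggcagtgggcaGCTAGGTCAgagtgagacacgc
The Slc7a11 matches begin 66 and 47 bases before the start site and run on opposite strands. Of all 32851 windows 0.895% held at least 1 such match, and 2 windows in all held 2. The Slc7a11 window held no match to the antioxidant response core as spelled here, which says only that these letters are not in these 300 bases. Antioxidant response matches were also found in the windows of Nfe2l2, Gclm, Srxn1 and 1 of 3 windows of Txnrd1, and none in that of Nqo1. Of all windows 12.4% held such a match. For Nqo1 too, the absence covers only this spelling in these 300 bases. Windows for Hmox1 and Gclc were not used here.

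Glutamate-cysteine ligase, the enzyme that limits glutathione synthesis, has a catalytic subunit, Gclc, and a modifier subunit, Gclm. Gclc had 496, 648, 606 and 482 normalized counts in controls and 608, 501 and 679 in ICI-myocarditis, with overlapping groups and a difference that did not pass (log2 fold change 0.09, SE 0.20; limma adjusted p = 0.799). Gclm had 662, 583, 678 and 829.5 in controls and 972, 778 and 934 in ICI-myocarditis. ICI-myocarditis 2 lay below control 4, and the difference of 0.38 (SE 0.19) did not pass (limma adjusted p = 0.217). The ratio of Gclm to Gclc overlapped between groups, at 1.34, 0.901, 1.12 and 1.72 in controls and 1.599, 1.55 and 1.38 in ICI-myocarditis.

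Genes that use or recycle glutathione showed no common direction. Of 15 tested, 0 rose by limma (3 at an unadjusted p under 0.05, and 2 by DESeq2 but 0 by edgeR) and 1 fell, with 7 log2 fold changes above 0 and 8 below. Gstm1, a glutathione transferase and classical NRF2 target, fell from 3532 ± 1091 to 1695 ± 124 normalized counts, a log2 difference of -1.002 (SE 0.27; limma adjusted p = 0.0360), but only leaving out control 2 among single libraries kept that call (the other 6 gave limma adjusted p from 0.0677 to 0.108). Gstm1 belongs to a family of similar genes, so reads may be shared with its paralogs. The peroxidases Gpx1 and Gpx3 had log2 fold changes of 1.04 and 1.02 and missed the threshold (limma adjusted p = 0.0520 and 0.0877).

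Txnrd1, the cytosolic thioredoxin reductase, had 2055, 1539, 1972 and 2526 normalized counts in controls and 2646, 2602 and 3048 in ICI-myocarditis. The groups did not overlap, with ICI-myocarditis 2 just above control 4, and the log2 fold change of 0.47 (SE 0.21) did not pass (limma adjusted p = 0.165). It passed with scaling by library totals (0.63, limma adjusted p = 0.0395), a scaling under which the median of all genes tested was 0.14 rather than -0.02.  Txnrd2, the mitochondrial reductase, had a negative log2 fold change that did not pass, averaging 933 ± 205 normalized counts over the 4 controls (± SD) and 539 ± 120 over the 3 ICI-myocarditis hearts, a difference of -0.79 (SE 0.25, limma adjusted p = 0.0616). Txnrd2 passed in 3 of 19 alternatives, namely DESeq2 (adjusted p = 0.0237), limma-voom (adjusted p = 0.0457) and limma without control 2 (adjusted p = 0.0192). The ratio of Txnrd1 to Txnrd2 varied little among controls, at 2.20, 2.31, 2.04 and 2.17, and higher in every ICI-myocarditis heart, at 4.21, 4.44 and 7.57.

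Srxn1 encodes sulfiredoxin, which repairs overoxidized peroxiredoxins. Its normalized counts were 557, 421, 509 and 633 in controls and 704, 739.9 and 1161 in ICI-myocarditis. All 3 ICI-myocarditis hearts lay above the controls and ICI-myocarditis 3 well above the rest, and the difference of 0.69 (SE 0.24) missed the threshold (limma adjusted p = 0.0833). It passed with scaling by library totals (0.85, limma adjusted p = 0.0423) and in DESeq2 on recovered reads (0.71, adjusted p = 0.0407). Without ICI-myocarditis 3 it was 0.46 (limma adjusted p = 0.321).

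Of 11 other genes for thioredoxins and peroxiredoxins, 2 rose and 0 fell by limma. DESeq2 called 2 of them lower, limma-voom 1 and edgeR 0, and limma without control 2 called 2 lower. Txn1, cytosolic thioredoxin and the substrate of Txnrd1, rose from 1474 ± 529 to 3322 ± 759 normalized counts, by 1.21 (SE 0.28, limma adjusted p = 0.0203). Glrx, which encodes glutaredoxin, rose from 591 ± 153 to 1132 ± 164 normalized counts, by 0.96 (SE 0.23, limma adjusted p = 0.0218). Either call was lost when any of 4 libraries was left out, both times with controls 1 and 3 and ICI-myocarditis 3 among them and with ICI-myocarditis 1 for Txn1 and 2 for Glrx (limma adjusted p from 0.0619 to 0.0959). The mitochondrial members Txn2 and Prdx3 each had 2 of 3 ICI-myocarditis hearts inside the control range and 1 below it, and were not called. Prdx5 and Txnrd2, also of this list, had all 3 ICI-myocarditis hearts below all controls. For Prdx5 these were 4401, 4311 and 3715 normalized counts, against a lowest control of 4738. Its log2 difference of -0.76 (SE 0.30) did not pass in limma. The list median was -0.43.

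**Figure D3:**
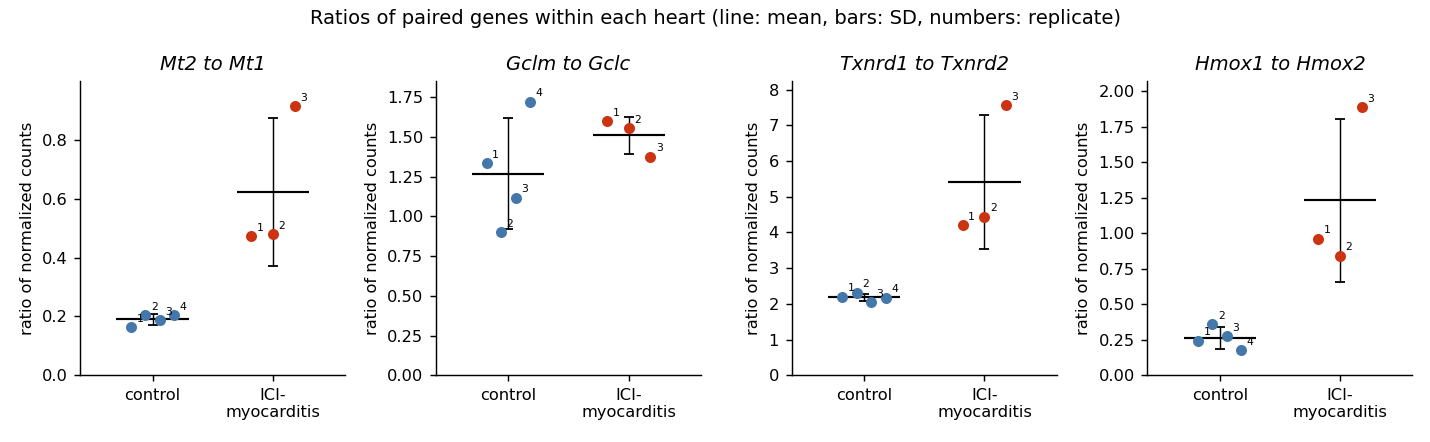
Ratio of normalized counts (linear axes from 0) of 4 gene pairs within each heart, with controls in blue, ICI-myocarditis in red, the group mean as a line and SD as bars. The ratios of Mt2 to Mt1, Txnrd1 to Txnrd2 and Hmox1 to Hmox2 are higher in all 3 ICI-myocarditis hearts than in any control, and that of Gclm to Gclc overlaps.

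Nqo1, the quinone reductase often read as the standard NRF2 target, was the single member with a negative fold change. Controls had 859, 949.8, 1581 and 2212 normalized counts and ICI-myocarditis hearts had 1445, 837 and 779. ICI-myocarditis 2 and 3 lay below all controls and ICI-myocarditis 1 among them, and the difference of -0.41 (SE 0.36) did not pass (limma adjusted p = 0.501). Its controls differed by 2.58 times, more than those of Gclc, Gclm, Txnrd1 or Srxn1. Of 12 other antioxidant and detoxifying genes 2 rose and 2 fell. Akr1b8, an aldo-keto reductase, rose from 71.9 ± 3.02 to 188 ± 73.7 normalized counts, by 1.31 (SE 0.30, limma adjusted p = 0.0186), and Ugdh, which makes UDP-glucuronate, from 547 ± 44.2 to 976 ± 94.3, by 0.83 (SE 0.17, limma adjusted p = 0.0124). Sod2, the mitochondrial superoxide dismutase, fell from 18610 ± 6250 to 7911 ± 2347 normalized counts, a log2 difference of -1.22 (SE 0.34; limma adjusted p = 0.0422). Cbr1, a carbonyl reductase, fell from 940.0 ± 246 to 472 ± 166 normalized counts, a log2 difference of -1.02 (SE 0.29; limma adjusted p = 0.0441). Without ICI-myocarditis 3, none of these 4 genes passed (limma adjusted p from 0.0613 to 0.185). Sod2 and Cbr1 were also lost without control 1, 3 or 4 or ICI-myocarditis 2, Sod2 without ICI-myocarditis 1, and Akr1b8 without control 3. Cbr1 passed in 8 of 19 alternatives, and with all 7 libraries it also missed with no filter (limma adjusted p = 0.0502), scaling by library totals (0.0621), no trended or robust variance (0.0655) and edgeR (adjusted p = 0.0544). Heart muscle markers were lower beside them, with 0 of 7 called but all 7 log2 fold changes below 0 and a summed level of 1155740 to 2206950 normalized counts in controls and 724793 to 1256660 in ICI-myocarditis, ranges that overlap. Endothelial markers had 5 of 5 log2 fold changes below 0 and 2 called (Kdr and Emcn), with sums of 25093 to 63951 against 16584 to 24066. Smooth muscle markers had 4 of 4 below 0 and 2 called (Myh11 and Cnn1), with sums of 8926 to 17910 against 5083 to 8535, so neither of these lists overlapped between groups. The part of any of these cell types in the falls was not tested.

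NADPH, which glutathione reductase, thioredoxin reductase and NQO1 all consume, is supplied by several enzymes, and of 7 genes for them 2 rose and 1 fell. G6pdx, the entry enzyme of the pentose phosphate pathway, had 326, 377, 295 and 243 normalized counts in controls and 587, 701 and 1426 in ICI-myocarditis. It rose by 1.45 (SE 0.31, limma adjusted p = 0.0151) and passed in all 19 alternatives. Pgd, the next oxidative step, rose from 685 ± 123 to 1425 ± 463 normalized counts, by 1.02 (SE 0.25, limma adjusted p = 0.0245), a call lost without control 3, ICI-myocarditis 2 or ICI-myocarditis 3 (0.0775, 0.0639 and 0.0955). Nnt, the mitochondrial transhydrogenase that makes NADPH inside the organelle, had 26542, 11079.9, 32852 and 43411 normalized counts in controls and 6773, 8703 and 5145 in ICI-myocarditis. All ICI-myocarditis hearts lay below all controls, and Nnt fell (log2 fold change -1.92, SE 0.45; limma adjusted p = 0.0206). That call was lost without control 1, control 3, ICI-myocarditis 1 or ICI-myocarditis 3 (limma adjusted p from 0.0560 to 0.0900).

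**Figure D4:**
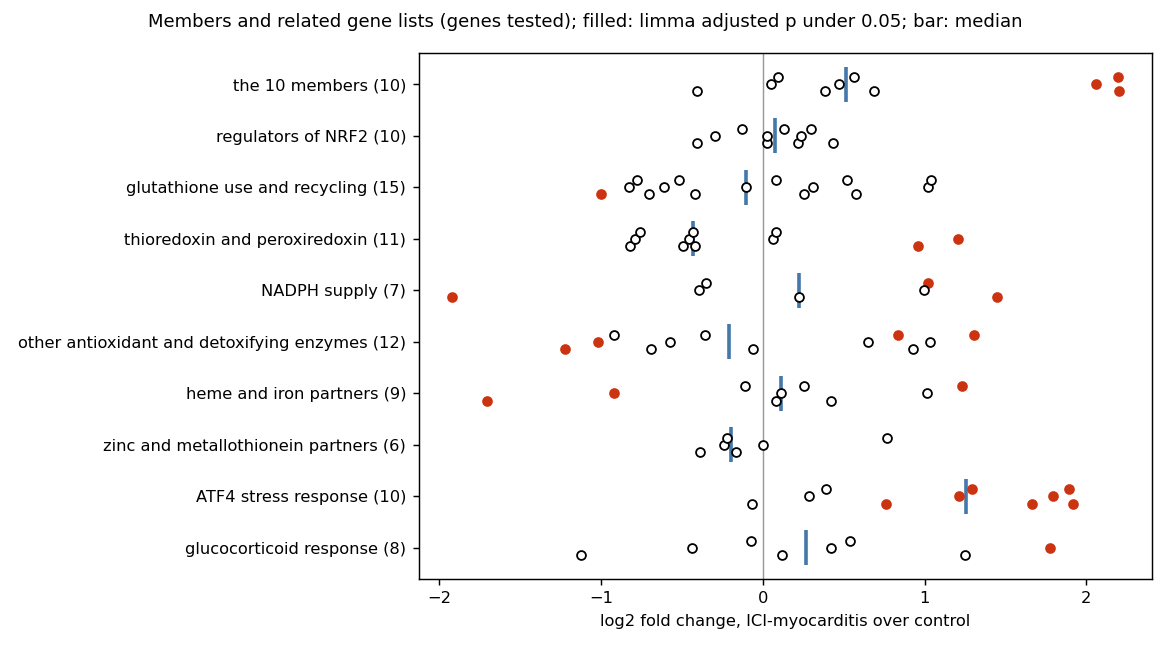
Log2 fold change of ICI-myocarditis over control (x axis) for every tested gene of the members and of 9 related lists (y axis, number tested in brackets), with filled points for a limma adjusted p under 0.05 and a bar at the list median. The ATF4 list has 7 filled points, all to the right of 0, while the other lists hold at most 4.

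Across the 9 related lists, 88 of 91 genes were tested, and 15 rose (17.0%) and 6 fell (6.82%). Over all genes tested these shares were 11.7% and 4.00%, and 7 of the 15 that rose are from the ATF4 list. Of the 21 called genes, 6 passed with any single library left out (G6pdx, Cd163, Phgdh, Psat1, Mthfd2 and Ddit3), and all of these but Cd163 passed in every alternative run. Leaving out ICI-myocarditis 3 ended 15 of the 21 calls, leaving out control 3 ended 11, and leaving out control 2 ended 1.

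Levels of the members were compared per kilobase of the longest principal transcript in GENCODE release M21. In controls Mt1 was the most abundant at 4268 ± 2382 normalized counts per kilobase (SD, n = 4), followed by Nfe2l2 (1040.4 ± 147), Nqo1 (902 ± 405), Mt2 (861 ± 482) and Txnrd1 (573 ± 115), which differed by less than their spread from Nfe2l2 to Mt2. Srxn1 (188 ± 31.6), Hmox1 (169.5 ± 7.63), Gclc (163 ± 23.9) and Gclm (123 ± 18.4) formed a lower group, of which Srxn1, Hmox1 and Gclc were within their spread of each other, and Slc7a11 was lowest at 0.854 ± 0.376. In ICI-myocarditis, Mt1 (5712 ± 1918) was still highest. Mt2 had moved from the fourth to the second place (3487 ± 270.0) and Hmox1 from the seventh to the fifth (745 ± 303).

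Genes with a pattern most like those of Mt2 and Hmox1 were found by Pearson's r of log2(normalized count + 1) over the 7 libraries, among 15098 other genes. For Mt2 they were Minpp1 (r = 0.996), an inositol phosphate phosphatase, Mapkapk3 (0.994), a kinase, and Znrf2 (0.993), a ubiquitin ligase. Minpp1 had 649, 429, 517 and 707 normalized counts in controls and 905, 894 and 928 in ICI-myocarditis, with control 2 lowest and control 4 highest among controls, as for Mt2. For Hmox1 they were Ticam2 (0.996), a Toll-like receptor adaptor, Tnfaip6 (0.995), a hyaluronan-binding protein, and Slc17a6 (0.995), a vesicular glutamate transporter. Ticam2 had 75.6, 81.4, 73.7 and 75.1 normalized counts in controls and 174, 178 and 236 in ICI-myocarditis, and Slc17a6 was at 0 in all controls and at 13.3, 14.5 and 35.9 in ICI-myocarditis. An r of at least 0.95 was reached by 34 genes for Mt2 and 400 for Hmox1. These r values are a description over 7 points that share libraries and fall into 2 groups.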

How the data were processed

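Total RNA from 7 mouse hearts was sequenced in paired-end reads from stranded libraries, per the labels' protocols. Per the submitters' processing notes STAR 2.7.3 and the build GRCm38 (mm10) were used, while the counting program, annotation and use of strand are not given in the sources used here. The deposited library columns are a signal, reads per gene after division by a library's own size factor, and the deposited mean column is their mean. The authors' comparison columns hold a log2 fold change with its error, a score (the test statistic) and p-values, per the file headers. Every value was a whole multiple of its column's smallest value to within 0.01, so read counts were recovered. For control 1 this is a weaker sign, since its step of 1.01 is close to 1. Names turned into dates affected 27 rows with 0.143% of reads, and 0 columns belonged to other samples.

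Groups and replicate numbers came from the sample titles. The principal test was limma 3.58.1 (R 4.3.3), run on log2 values after adding a pseudocount of 1, with trended and robust variance, over the 15258 genes that reached 10 normalized counts in 3 or more libraries, with Benjamini-Hochberg adjustment and a threshold of 0.05. Fold changes on that scale understate the change of low genes. Alternatives were edgeR 4.0.16, DESeq2 1.42.0 and limma-voom on the recovered reads, pseudocounts of 0.5 and 5, other filters, scalings and variance settings, a replicate block and each library left out in turn. Leaving out controls 2 and 4 together was added after seeing the data. Fits were tested on simulated data. Members and lists were chosen with earlier results of these data known. Named genes are the members, up to 4 called genes per list (or the lowest p where none was called), Hmox2, Txnrd2, Keap1, Bach1, Mtf1 and the 3 genes most like Mt2 and Hmox1. Other list genes given with values were chosen after these were seen. One marker, Adgre1, was matched by its older name Emr1. Promoters matched 8 of 10 members.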

Additional observations from a re-analysis of the deposited data

Results flagged for a closer look

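Of 47 results examined over the 4 controls, 2 held a single heart whose gap to its nearest neighbour, as a share of the whole range, exceeded Dixon's 95% limit, which chance passes in about 1 of 20 groups. Both are hepatocyte genes in control 4. Alb, which encodes albumin, had 425 normalized counts there and 0 in the other 3 controls, so the gap was the whole range (a share of 1). Serpina1a, which encodes a liver protease inhibitor, had 15.0 there and 0 in the others, again a share of 1. With the other 3 controls at 0 the share is 1 whatever control 4 holds. Both flags thus show only that these genes were read in control 4 alone among controls, and the rate of 1 in 20 need not hold for tied zeros. These flags do not cover every wide gap among the controls. The other hepatocyte markers Apoa1 and Ttr had 61.3 and 40.0 normalized counts in control 4, against at most 1.23 and 8.07 in other controls. The T cell markers Cd8a and Cd3e had 572 and 250 in control 2, against at most 42.4 and 20.2 in other controls. The part of hepatocyte RNA in the Mt1 and Mt2 values of control 4 was not tested.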

How the results depend on the processing

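Mt2 and Hmox1 passed in all 19 alternatives, with log2 fold changes from 1.86 to 2.51 and from 1.75 to 2.23. Slc7a11 passed in 13 of 18 and was not tested with the filter on a mean of 50. The count of members called was 3, and 5 with scaling by library totals, where Txnrd1 and Srxn1 passed too. Leaving out single libraries gave 2 to 3 members and 986 to 3340 genes called, against 2397. Without control 1, control 3, ICI-myocarditis 2 and ICI-myocarditis 3 the gene counts were 1508, 1298, 1396 and 986. The share of calls that were higher was 74.6%, 84.3% with scaling by library totals and 62.8% in DESeq2. Leaving out controls 2 and 4 together gave 2172 genes and 3 members. Small differences changed sign in Nfe2l2 without control 2 (-0.0311, with omissions giving up to 0.125) and in Gclc without ICI-myocarditis 3 (-0.0046, up to 0.214). Hmox2 changed sign with scaling by library totals (0.0507) and without control 4 (0.0466, omissions reaching down to -0.243). The replicate block gave Hmox2 the same 0.0466 and is not a separate case, as explained below. The cause of these sign changes was not tested. Replicate numbers are not said to pair animals, so they were not taken as pairs. Same-numbered hearts did not deviate together from their group means (r of -0.271, -0.206 and -0.0784 across genes for numbers 1 to 3). The r of other pairs ran from -0.477 to 0.451. Such values, centred within each small group, cannot show whether hearts shared a litter or batch. With the replicate block, 1780 genes and 2 members were called, and Slc7a11 missed the threshold (limma adjusted p = 0.0503). Control 4 has no ICI-myocarditis heart of its number, so it does not enter the estimates of this fit. They equal those with control 4 left out (2.33 for Slc7a11 and 2.51 for Mt2 in both). Calls lost with the block thus combine the blocking with the loss of control 4. Of the 21 called genes of the related lists 9 passed with the block. None of the 3 heme and iron calls did (Cd163 0.0626, Slc40a1 0.0679, Ftl1 0.0690), nor did the 4 of other antioxidant enzymes or the 1 of glutathione, while 1 of 3 of NADPH supply and 5 of 7 of ATF4 did. Depth limits Slc7a11 alone among the members, with 3 to 9 reads per control.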
